A study of Mus musculus with 4 samples.

Results

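The interleukin-12 family is a group of cytokines built from paired subunits, and 5 of its genes are described here: the cytokine subunit genes Il12a, Il23a, Il27 and Ebi3, and the receptor subunit gene Il12rb1. They were taken as every array probe whose accession belongs to one of these symbols, which gave 6 probes for 5 genes, among 39429 probes for 32395 genes or accessions in all. Il12rb1 had 2 probes and each of the other members had 1. The array set mouse macrophages lacking Cdk5r1, the gene of an activator of the kinase CDK5, against wildtype macrophages.

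Bone marrow of male mice, 6 weeks old, was cultured for 7 days in GM-CSF (25 ng/ml), a growth factor that turns marrow cells into macrophages and dendritic cells. Cells were then left unstimulated (basal) or given E. coli lipopolysaccharide (LPS, a cell wall component that activates macrophages through a Toll-like receptor) at 100 ng/ml for 6 h. Each of the 4 arrays carried a wildtype RNA labelled green (Cy3) beside a Cdk5r1 knockout RNA labelled red (Cy5), with 2 arrays for the basal state and 2 for LPS. The labels give the strain name B6.129S4-Cdk5r1tm1Lht/J for both genotypes and name no animals for the biological replicates, so the p-values measure the spread between these arrays. No array had its dyes swapped, so a dye effect of a probe and the genotype cannot be told apart in a ratio. The labels name no promoter or cell type that would limit the allele to macrophages.

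Macrophages and dendritic cells make interleukin-12 family cytokines after sensing microbes, and T and NK cells read them. Each cytokine joins an alpha subunit, a four-helix protein, to a beta subunit that resembles a soluble receptor. Il12a encodes the alpha subunit of interleukin-12 and of interleukin-35, Il23a that of interleukin-23, and Il27 that of interleukin-27. Ebi3 encodes the beta subunit of interleukin-27 and interleukin-35, and the product of Il12b, which is not analysed here, is the beta subunit of interleukin-12 and interleukin-23. Il12rb1 encodes the receptor chain shared by interleukin-12 and interleukin-23. The alpha subunit made by Il12a is often called p35, a name also used for the unrelated protein made by Cdk5r1.

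Every array gave less Cdk5r1 signal in its knockout channel, with log2 ratios of -0.37 and -0.59 (basal) and of -2.55 and -2.29 (LPS). Both Cdk5r1 probes were still well above background in the knockout channel of every array, where the basal mean of the brighter probe was 9.20 against 9.68 in wildtype cells. Whether these probes lie inside the deleted part was not checked. The median foreground intensity of an array lay between 76 and 97.5 in Cy3, with a background of 25 to 27, and between 116 and 145.5 in Cy5, with a background of 46 to 48. Between 62.1% and 71.0% of probe spots were well above background in a channel, and no probe spot was saturated. Precision is limited by how few arrays there are. All 9 macrophage markers on the array, among them Adgre1, Csf1r and Lyz2, gave signal above background, as did 11 of 12 dendritic cell markers. All arrays came from 1 slide, so no slide term could be fitted.

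Among the members, promoter sequence was at hand for Ebi3 and Il12a alone, and is shown for both. These members went in opposite directions in the knockout under LPS, and a link of that to their promoter sequence was not tested. RefSeq sequences of build GRCm38.p6 give the 250 bases before each annotated start, on the plus strand, with 1 start for Ebi3 (chr17:55952373-55952622) and 2 for Il12a (chr3:68690394-68690643 and chr3:68691174-68691423). Capitals mark a match to the NF-kappaB consensus, the binding sequence of a transcription factor family activated by LPS.
Ebi3: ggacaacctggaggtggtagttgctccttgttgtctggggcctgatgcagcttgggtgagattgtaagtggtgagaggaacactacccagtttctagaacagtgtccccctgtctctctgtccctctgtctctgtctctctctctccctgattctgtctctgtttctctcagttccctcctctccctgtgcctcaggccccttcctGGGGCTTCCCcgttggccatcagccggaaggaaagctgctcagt
Il12a, upstream start: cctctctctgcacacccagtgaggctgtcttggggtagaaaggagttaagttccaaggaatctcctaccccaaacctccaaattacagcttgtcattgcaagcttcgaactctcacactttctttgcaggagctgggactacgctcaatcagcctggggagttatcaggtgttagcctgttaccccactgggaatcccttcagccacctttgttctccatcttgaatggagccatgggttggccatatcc
Il12a, downstream start: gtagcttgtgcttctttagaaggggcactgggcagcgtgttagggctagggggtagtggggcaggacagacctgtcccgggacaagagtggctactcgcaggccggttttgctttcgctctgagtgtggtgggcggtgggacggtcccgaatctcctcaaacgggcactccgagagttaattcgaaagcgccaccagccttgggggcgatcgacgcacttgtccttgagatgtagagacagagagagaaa
The Ebi3 window held 1 match to the NF-kappaB consensus, 44 to 35 bases before the start, a motif found in 3.90% of 32851 promoter windows of this length when both strands were searched. It also held GAGGAA, the core of a PU.1 site, which 23.3% of windows hold. Neither Il12a window held the NF-kappaB consensus or any of the other motifs searched on both strands, which were GAGGAA, the interferon-stimulated response element (in 2.98% of windows), TGANTCA (an AP-1 site, 6.75%), TTGCNNAA (a C/EBP motif, 9.56%) and TATAAA (12.4%). None of these motif matches overlapped another in the Ebi3 window. The downstream Il12a window was richer in CG dinucleotides, with 15 against 2 in the upstream window and 2 in the Ebi3 window, and the windows were 58.4%, 50.8% and 56.0% G and C.

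LPS raised every member in wildtype cells. Il27 rose by 3.47 ± 0.20 on the log2 scale (SE, n = 2 arrays per condition, limma adjusted p = 0.00083), which is 11.1-fold. Il12a and Il23a came up from levels that were not well above background, Ebi3 rose from a level already clearly measured, and Il12rb1 rose by 1 of its 2 probes. The count was 5 of 5 members higher, where 18.3% of all 23571 genes tested were higher and 23.5% lower. Il12a and Il23a passed the filter only through their LPS arrays, so a rise was favoured for them in advance. The median change of the members was 2.57, which is the value of Il23a over basal signals not well above background. That of all genes was -0.01.

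In wildtype cells Il12a had normalised log2 levels of 6.26 and 6.00 in the basal state, then 8.80 and 9.02 under LPS. Neither basal value was well above background, so the rise is a lower bound, at least 6.53-fold. The adjusted p of 0.00064 belongs to 2.78, the log2 rise over those basal values, and the bound itself was not tested. The probe was kept only through its signal on the LPS arrays. That bound sets the LPS mean against, on each basal array, the higher of the lowest signal well above background and the probe's own signal. In the knockout channel the levels were 6.27 and 5.98, then 8.33 and 8.40, a rise of at least 4.71-fold. There the adjusted p of 0.0013 belongs to 2.24, the log2 rise over the basal values. On each LPS array the knockout value lay below the wildtype value.

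Il23a was likewise not well above background in the basal state, at 6.12 and 6.02 in wildtype and 5.92 and 6.03 in knockout cells. Its LPS levels were 9.14 and 8.14 in wildtype cells and 8.64 and 7.63 in knockout cells, and LPS replicate 1 was the higher array in both channels. The rise was at least 5.69-fold in wildtype cells and at least 4.14-fold in knockout cells. The adjusted p of 0.0053 and 0.011 belong to 2.57 and 2.16, the log2 rises over the basal values, and not to the bounds. This probe too was kept only through its LPS arrays. In the knockout, leaving out basal replicate 1 gave an adjusted p of 0.066, and leaving out basal replicate 2 gave 0.065.

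Il27 was measured on every array. Its wildtype levels were 8.69 and 8.65 in the basal state, then 12.42 and 11.87 under LPS, and its knockout levels were 8.59 and 8.45, then 12.29 and 11.62. LPS raised it by 3.43 ± 0.25 in knockout cells (log2, SE, n = 2, adjusted p = 0.0016), close to the 3.47 in wildtype cells. The Il27 change stood at the 99.1 percentile of all genes tested in wildtype cells and at the 98.9 percentile in knockout cells.

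Ebi3 differed little between the arrays of a condition. Wildtype levels were 13.90 and 13.84 in the basal state, then 16.25 and 16.33 under LPS. Knockout levels were 13.68 and 13.71, then 16.49 and 16.74, so the knockout was below the wildtype on both basal arrays and above it on both LPS arrays. LPS raised Ebi3 by 2.42 ± 0.095 in wildtype cells (log2, SE, n = 2, adjusted p = 0.00045) and by 2.92 ± 0.13 in knockout cells (adjusted p = 0.00072).

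The probes of Il12rb1 disagreed. Its brighter probe (A_55_P2034033) had wildtype levels of 7.80 and 7.04 in the basal state, then 8.74 and 10.19 under LPS, and knockout levels of 7.02 and 7.22, then 8.83 and 10.18. LPS raised it by 2.05 ± 0.54 in wildtype cells (log2, SE, n = 2, adjusted p = 0.037) and by 2.39 ± 0.46 in knockout cells (adjusted p = 0.017), with a gap of 1.44 between the wildtype LPS arrays. The dimmer probe (A_55_P2034032) was well above background on every array, with levels between 6.52 and 6.94 over all arrays and channels. It gave changes of 0.22 ± 0.11 and 0.21 ± 0.12 in wildtype and knockout cells, neither past the threshold when every kept probe was tested (adjusted p = 0.18 and 0.25). Whether the probes read different transcripts was not tested. The wildtype call of the brighter probe was lost without basal replicate 1 (2.43, adjusted p = 0.083), without basal replicate 2 (1.67, adjusted p = 0.17) without LPS replicate 2 (1.33, adjusted p = 0.058), with the replicate block (adjusted p = 0.061) and with no filter on dim probes (adjusted p = 0.055), and the knockout call without basal replicate 1 (2.28, adjusted p = 0.091) or basal replicate 2 (2.49, adjusted p = 0.085).

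In knockout cells 5 of 5 members were higher under LPS, where 19% of all genes tested were higher and 22.8% lower. Il12a and Il23a are again in this count, although the filter kept them only through their LPS arrays. The count was 4 of 5 in either genotype if the dimmer probe stands for Il12rb1. Leaving out basal replicate 1 or basal replicate 2 reduced the count to 3 in knockout cells, where Il23a and Il12rb1 no longer passed. Among the members with measured basal levels the order of the changes was Il27, Ebi3 and Il12rb1 in both genotypes. Il12a and Il23a have no place in that order, since their rises are lower bounds.

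**Figure D1:**
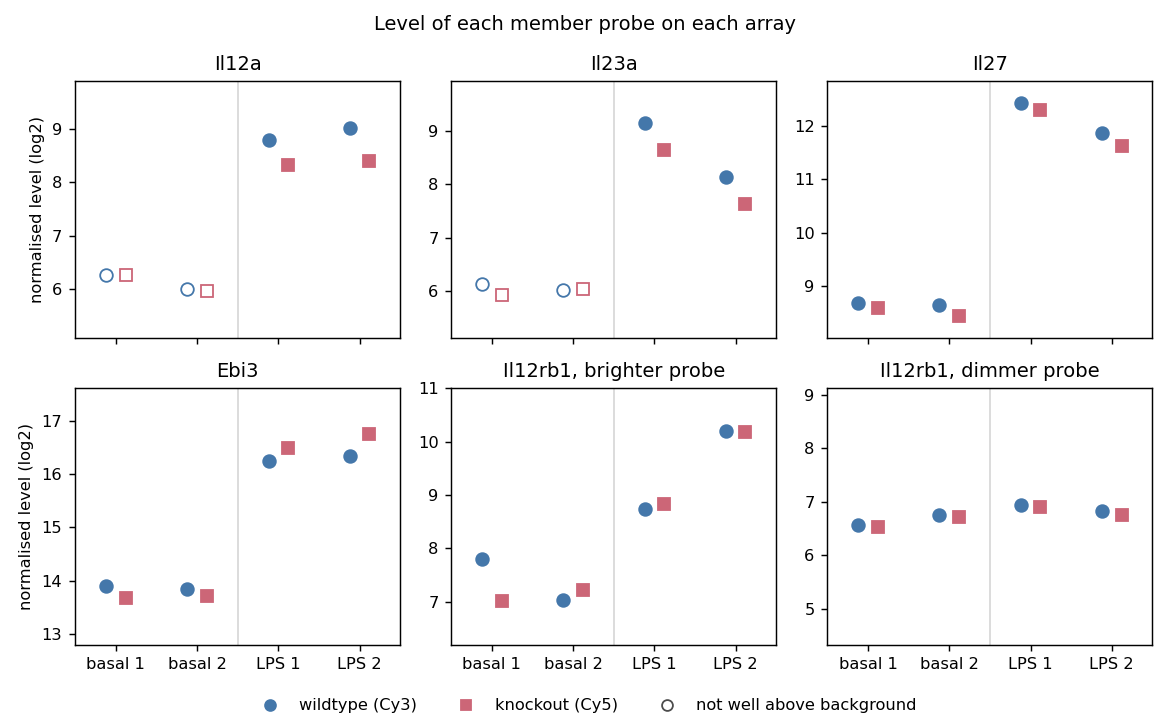
Normalised log2 level of each of the 6 member probes (panels) on the 4 arrays (x axis), with wildtype as circles and knockout as squares; open symbols were not well above background, and all panels span the same number of log2 units. Il12a and Il23a are open on the basal arrays, Ebi3 crosses from knockout below wildtype to knockout above it, and the dimmer Il12rb1 probe stays between 6.52 and 6.94.

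**Figure D2:**
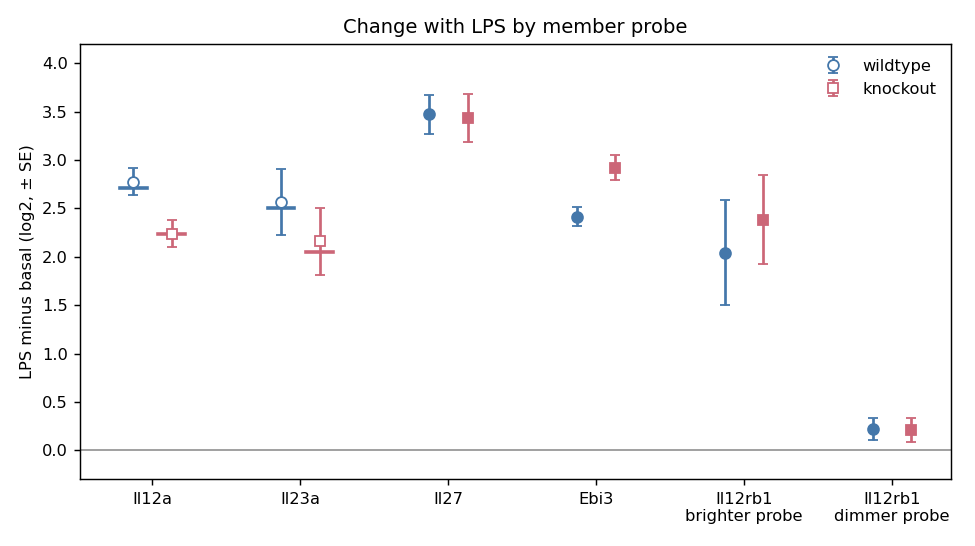
Change with LPS (log2, y axis, bars are SE, n = 2 arrays per condition) for each member probe, wildtype as circles and knockout as squares. Open symbols have basal values not well above background, and the thick dashes give their lower bounds; Il27 lies at 3.47 and 3.43, Il12a and Il23a are known only to exceed their dashes, and the dimmer Il12rb1 probe lies at 0.22 and 0.21.

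Knockout against wildtype under LPS asked whether cells without Cdk5r1 express the family differently once stimulated. Il12a was lower in the knockout at -0.545 ± 0.072 on the log2 scale (SE, n = 2, limma adjusted p = 0.0058), a 1.46-fold difference, at ratios of -0.47 and -0.62 on the arrays. Il23a was lower at -0.51 ± 0.078 (adjusted p = 0.010), 1.42-fold, at -0.50 and -0.51. Ebi3 was higher at 0.32 ± 0.076 (adjusted p = 0.041), 1.25-fold, at 0.24 and 0.41. So 2 alpha subunit genes were lower and 1 beta subunit gene higher, where 5.23% of all genes tested were lower and 7.17% higher.

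Il27, the alpha subunit gene that partners Ebi3, was at -0.13 and -0.25 on the LPS arrays, a mean of -0.19 ± 0.073 with a 95% interval of -0.36 to -0.01, and did not pass (adjusted p = 0.15). Il12rb1 was at 0.08 and -0.01, a mean of 0.04 ± 0.20 with an interval of -0.44 to 0.52 (adjusted p = 0.93). That SE draws on all 4 arrays, where the standard deviation of the ratios was 0.684 for basal and 0.064 for LPS. The dimmer Il12rb1 probe was at -0.04 and -0.07. The knockout values of Il27 lay below the wildtype value of the same array on all 4 arrays, while those of Il12rb1 lay on both sides.

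With 2 arrays per condition these calls were close to their limit. The 3 members called became 0 without LPS replicate 1 and 0 without LPS replicate 2, although the log2 ratios were then -0.62 and -0.47 for Il12a (adjusted p = 0.056 and 0.092), -0.51 and -0.50 for Il23a (0.12 and 0.11), and 0.41 and 0.24 for Ebi3 (0.13 and 0.26). With the scanner's processed signals the count was 0 as well: Il12a at -0.66 (adjusted p = 0.058), Il23a at -0.70 (0.29) and Ebi3 at 0.12 (0.39), while centring on the median without loess put Ebi3 at 0.91. With the replicate number as a block, Ebi3 had adjusted p = 0.064.

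Markers of other cells also differed by genotype under LPS, where 5.23% of all genes tested were lower and 7.17% higher. Of 10 neutrophil markers 8 were lower in the knockout under LPS and 0 higher, with a median log2 ratio of -0.82 and -0.77 on the LPS arrays and summed processed signals of 207789 to 220526 in wildtype and 72101 to 74192 in knockout cells. Of 9 macrophage markers 4 were lower and 0 higher, with sums of 92015 to 106278 and 73459 to 99338. Of the dendritic cell markers 1 of 11 was higher and 1 lower, and the sums were 251222 to 262120 and 235185 to 254615. For T and NK cell markers 0 of 8 measured passed, with sums of 5668 to 6055 and 6583 to 6764. These sums are mostly Cd4, by far the brightest of the list, with log2 ratios of 0.24 and 0.25 on the LPS arrays. The median ratio of the list was -0.06 and 0.02. For B cell markers 0 of 6 passed, with sums of 172 to 196 and 187 to 237. Xcr1, a marker of cross-presenting dendritic cells, gave no signal well above background. The part of these cells in the difference of Il12a, Il23a and Ebi3 was not tested, and in bulk RNA fewer cells of a type and less RNA per cell cannot be told apart.

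**Figure D3:**
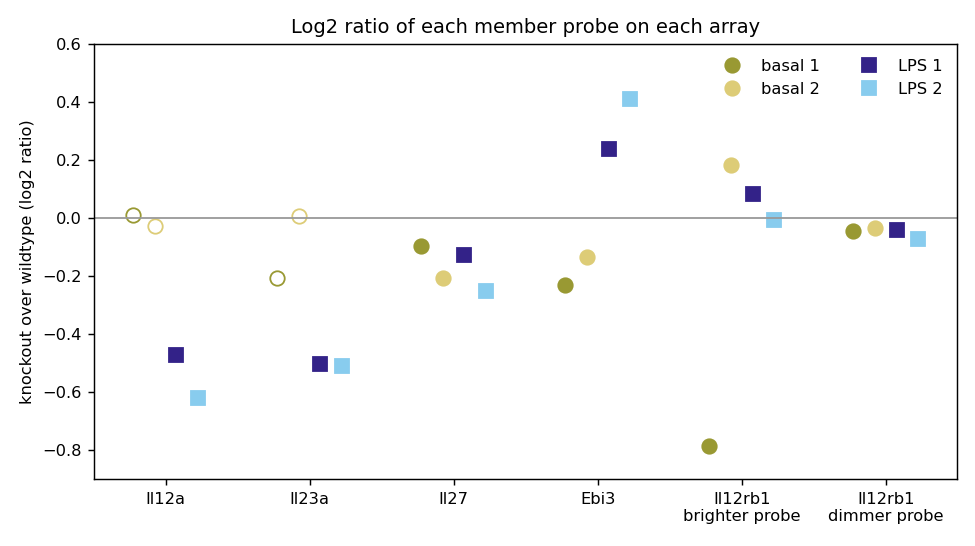
Log2 ratio of knockout over wildtype (y axis) for each member probe on the 4 arrays, basal arrays as circles and LPS arrays as squares; open symbols had no signal well above background in either channel. Il12a and Il23a lie between -0.47 and -0.62 on the LPS arrays, Ebi3 changes side between conditions, and the brighter Il12rb1 probe has a lone low value of -0.78 on basal replicate 1.

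**Figure D4:**
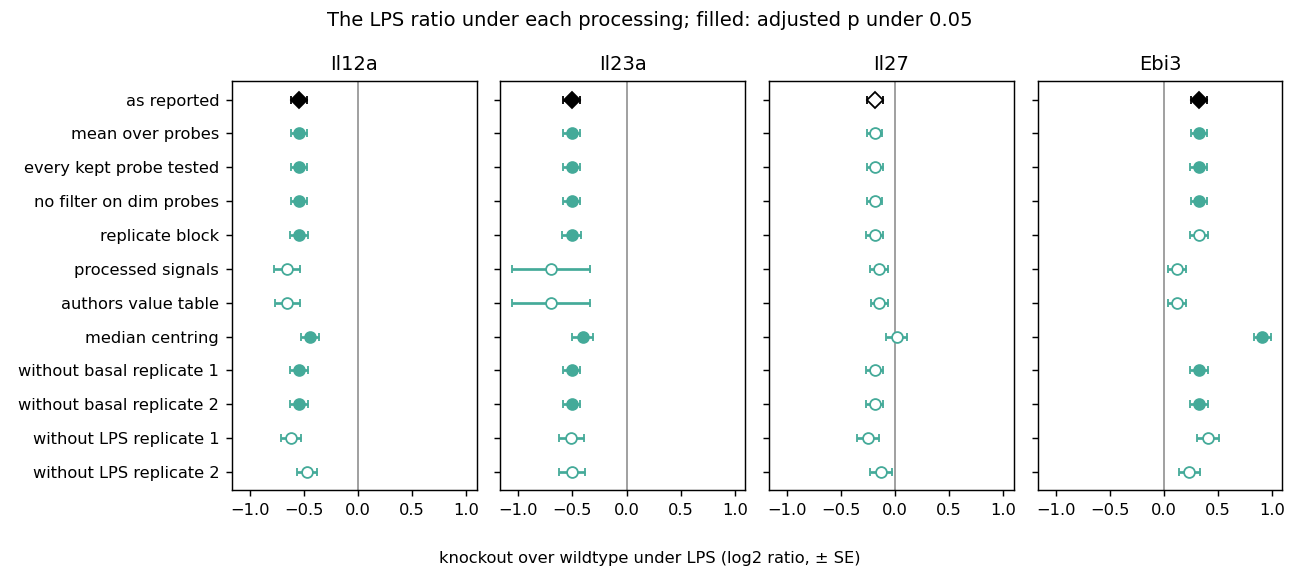
Log2 ratio under LPS (x axis, bars are SE) of the 4 cytokine subunit genes under the reported processing (diamond) and 11 alternatives (circles); filled symbols passed an adjusted p of 0.05. Il12a and Il23a stay below 0 throughout, Il27 reaches 0.01 with median centring, and Ebi3 ranges from 0.12 to 0.91.

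Under basal conditions no member passed, where 4.87% of all genes tested did. Il12a and Il23a were not well above background in either genotype, so no difference is given for them. Ebi3 had log2 ratios of -0.23 and -0.13, a mean of -0.18 ± 0.076 (limma adjusted p = 0.26, 95% interval -0.36 to 0.00), and Il27 had -0.10 and -0.21, a mean of -0.15 ± 0.073 (adjusted p = 0.32, interval -0.33 to 0.02). At an unadjusted p under 0.05 the count was also 0 of the 3 measured members. Il12rb1 stood at -0.78 on basal replicate 1 and 0.18 on basal replicate 2, a gap that 99.6% of all genes did not reach. Its mean of -0.30 ± 0.20 did not pass (adjusted p = 0.47), was 0.18 without basal replicate 1, and passed at -0.78 (adjusted p = 0.012) without basal replicate 2.

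The difference of the knockout effect between LPS and basal, in which a constant dye effect cancels, could be read for the 3 members with signal in both states. It was 0.50 ± 0.11 for Ebi3 (log2, SE, n = 2, adjusted p = 0.16, 95% interval 0.25 to 0.76), -0.04 ± 0.10 for Il27 (adjusted p = 0.93, interval -0.29 to 0.21) and 0.34 ± 0.28 for Il12rb1 (adjusted p = 0.75, interval -0.34 to 1.02). None passed, where 0.382% of all genes tested did, so a larger genotype gap under LPS is not shown for any member. At an unadjusted p under 0.05 the count was 1, Ebi3. Averaged over both states, Il27 was at -0.17 ± 0.052 (adjusted p = 0.067), Ebi3 at 0.07 ± 0.054 (0.40) and Il12rb1 at -0.13 ± 0.14 (0.55), where 18.1% of all genes passed; at an unadjusted p under 0.05 the count was 1, Il27.

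The other receptor chains of the family were measured by 4 genes. Il12rb2, which completes the interleukin-12 receptor, rose with LPS by 1.39 ± 0.17 in wildtype and 1.69 ± 0.12 in knockout cells (log2, SE, n = 2, limma adjusted p = 0.0046 and 0.0015). It was higher in the knockout under LPS at 0.44 ± 0.086 (adjusted p = 0.023; 0.58 and 0.30 on the arrays), and its other kept probe gave 0.57 (adjusted p = 0.0072). The call of Il12rb2 held in 7 of 11 alternatives, and was lost, among others, without LPS replicate 1 or 2 and with the processed signals. Il23r, which completes the interleukin-23 receptor, rose at least 3-fold in wildtype and 3.64-fold in knockout cells from basal levels not well above background. Its probe was kept only through its LPS arrays, so a rise was favoured in advance. In the knockout under LPS Il23r was at 0.18 ± 0.069 (adjusted p = 0.14). Il6st, which encodes gp130, a chain of the interleukin-27 receptor, fell by 1.25 ± 0.21 with LPS in wildtype cells (adjusted p = 0.0098), and its change in knockout cells was -0.93 ± 0.27 (adjusted p = 0.053). Il27ra, the other chain, was higher in the knockout in the basal state at 0.34 ± 0.071 (adjusted p = 0.047). That call held in 4 of 11 alternatives. It was lost, among others, with the processed signals, with the replicate block and without any 1 of the 4 arrays. Under LPS Il27ra stood at 0.03 ± 0.071 (adjusted p = 0.83), where median centring turned it to -0.04. Its change with LPS was -0.16 ± 0.090 in wildtype cells (adjusted p = 0.23) and -0.47 ± 0.10 in knockout cells (adjusted p = 0.022), and with 75th percentile scaling 0.32 and -0.0059.

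Kinases, STAT factors and feedback inhibitors that act below these receptors mostly rose with LPS. Of 10 such genes 9 rose in wildtype and 8 in knockout cells with 0 lower, led in wildtype cells by the inhibitors Socs1 (3.07 ± 0.31) and Socs3 (2.51 ± 0.40). Among all genes tested 18.3% rose in wildtype and 19% in knockout cells. Stat4, the factor through which interleukin-12 acts in T and NK cells, rose by 3.25 ± 0.20 in knockout cells. By the brightest probe of each gene it was the 1 gene of the list that differed by genotype under LPS, with 0 lower. Of all genes 7.17% were higher and 5.23% lower. Stat4 was at 0.96 ± 0.14 (adjusted p = 0.0079), with 0.74 and 1.18 on the arrays. Its ratios on the basal arrays were -0.13 and -0.56. The call of Stat4 held in 7 of 11 alternatives, and was lost, among others, with the processed signals and without LPS replicate 1 or 2. When every kept probe was tested, another probe of Stat3 was higher at 0.48 (adjusted p = 0.034) and another of Ptpn2 at 0.30 (0.037). The brightest probes of these genes gave 0.07 (0.62) and 0.18 (0.18), and a further Ptpn2 probe gave -0.01 (0.92).

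Transcription factors and cofactors known to act on genes of this family rose in 17 of 26 cases and fell in 3, in wildtype and in knockout cells. Among all genes tested 18.3% rose and 23.5% fell in wildtype cells, and 19% and 22.8% in knockout cells. Irf7 (5.82 ± 0.31 in wildtype cells), the inducible NF-kappaB cofactor gene Nfkbiz (4.01 ± 0.34) and Nfkb2 (3.37 ± 0.13) rose most in wildtype cells. Under LPS 2 of the 26 were higher in the knockout, Irf8 at 0.57 ± 0.096 (adjusted p = 0.014) and Nfkbiz at 0.40 ± 0.066 (0.013), and 1 lower, Cebpb at -0.42 ± 0.077 (0.020; -0.02 with median centring). These shares are near the 7.17% of all genes that were higher and the 5.23% that were lower. The calls of Irf8 and Nfkbiz held in 7 of 11 alternatives and that of Cebpb in 6. All were lost, among others, with the processed signals and without LPS replicate 1 or 2. Irf8 encodes a factor known to act on interleukin-12 genes, and Cebpb a factor that many LPS-induced genes use. In the basal state Irf7 alone passed, lower at -0.61 ± 0.066 (adjusted p = 0.0048, and 0.052 at -1.34 with the processed signals). That call held in 9 of 11 alternatives. The median log2 ratio of the list under LPS was 0.03, and that of all genes -0.00076.

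Among 13 genes whose products are known to restrain these cytokines, 5 were higher and 3 lower in the knockout under LPS, with a median of 0.24. This list, like the other gene lists, was chosen with earlier results of these data known. Its counts therefore cannot serve as a test against the share of all genes. Of all genes tested 7.17% were higher and 5.23% lower. Il10, which encodes a cytokine that lowers interleukin-12 output, was higher by 1.91 ± 0.066 (adjusted p = 4.97e-05), with wildtype levels of 7.84 and 8.81 and knockout levels of 9.74 and 10.72 on the LPS arrays. The adenosine receptor gene Adora2b was lower by 1.93 ± 0.091 (adjusted p = 0.00014), and Trib1, a pseudokinase gene, by 0.66 ± 0.076 (adjusted p = 0.0036). The call of Trib1 was lost at -0.56 without LPS replicate 2. When every kept probe was tested, the other probe of Adora2b gave -1.14 (adjusted p = 0.00052) and that of Trib1 -0.60 (0.013). With LPS 8 of the 13 rose and 0 fell in wildtype cells, beside 18.3% and 23.5% of all genes tested. Il10 passed the filter only through its LPS arrays, so a rise was favoured for it in advance. The adenosine receptor gene Adora2a (5.20 ± 0.15) and the prostaglandin receptor gene Ptger4 (2.47 ± 0.12) rose most. No basal difference passed among the 12 measured, where 4.87% of all genes tested did.

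The next list held genes linked to the responses of T and NK cells to interleukin-12 or interleukin-23, and the cytokine gene Il18. They ranged from Il2ra, well above background on every array, to Ifng and Il17a, which were not in part of the samples. With LPS 6 rose and 2 fell of 12 measured in wildtype cells, beside 18.3% and 23.5% of all genes tested. In knockout cells 6 rose and 1 fell of 11, beside 19% and 22.8%. Ifng, Gzmb and Tbx21 passed the filter only through their LPS arrays, so a rise was favoured for them in advance. Il18r1, an interleukin-18 receptor gene, fell by 2.94 ± 0.27 in wildtype and by 2.84 ± 0.18 in knockout cells (adjusted p = 0.0020 and 0.0013), and by 0.56 and 0.55 by its other kept probe. Ifng, the main output of interleukin-12 signalling, was not well above background in the basal state and rose at least 9.59-fold in wildtype and 13.3-fold in knockout cells. Of 11 measured genes of this list 4 were higher in the knockout under LPS and 0 lower, beside 7.17% and 5.23% of all genes tested. Il17a, a product of cells that read interleukin-23, was at least 2.53-fold higher (adjusted p = 0.0030), because it was not well above background in the wildtype channel of either LPS array. Gzmb, a cytotoxic granule protease gene, was higher by 1.28 ± 0.10 (adjusted p = 0.0011), and Il2ra, an interleukin-2 receptor gene, by 0.75 ± 0.18 (adjusted p = 0.044). The calls of Il17a and Il2ra held in 7 of 11 alternatives. They were lost, among others, with the processed signals and without LPS replicate 1 or 2. In the basal state Il17a, well above background on 1 of the 2 wildtype arrays, was also higher, at 1.21 ± 0.15 (adjusted p = 0.0067). Il18, a cytokine gene that acts together with interleukin-12, was lower at -0.62 ± 0.091 (adjusted p = 0.013). These basal calls held in 9 of 11 alternatives for Il17a and in 8 for Il18. Both were lost, among others, with the processed signals, and that of Il18 also without basal replicate 1. The part of T or NK cells in these values was not tested. The summed T and NK markers, mostly Cd4, are given above.

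Among the 15987 tested genes with a symbol, likeness of pattern was measured as the root mean square difference of log2 levels. It was taken over the 8 channel values after centring each gene. It is given for the 3 members with measured basal levels, since the basal values of Il12a and Il23a were not well above background and their distances would rest on the background setting. Il27 was nearest to Sh3bp5 (0.142), the kinase gene Lck (0.177) and Sp140 (0.179), and Ebi3 to Ttc39c (0.089), Ms4a4b (0.106) and Ildr1 (0.111). Il12rb1, by its brighter probe, had no neighbour closer than Bst2 (0.256), followed by Cp (0.271) and Ms4a6c (0.291). The subunits that pair in interleukin-27, Ebi3 and Il27, stood at 0.517, Ebi3 and Il12rb1 at 0.535, and Il12rb1 and Il27 at 0.967. The 8 values come from 4 arrays, so channels of an array share a spot and a scan.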

How the data were processed

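The members and gene lists were chosen with earlier results of these data known. The authors deposited spot intensity values per channel made with Agilent Feature Extraction (9.3.2.1 per the submitters' processing notes but 11.5.1.1 in the headers); log10 ratios per spot, per the file headers, were not used, and the authors' deposited table of log2 ratios served as an alternative. Median foreground and background intensities were corrected with normexp (offset 50), normalised by loess within arrays and set across arrays by Aquantile in limma 3.58.1 under R 4.3.3. Between 207 and 255 probe spots per array with outlier flags were left out. Probes well above background in a channel on at least 2 arrays were kept (28637 probes), and the brightest stood for each of 23571 genes or accessions. Symbols came from RefSeq transcripts of GRCm38.p6 without versions (27508 of 39429 probes matched); the array's build is mm9, per the file headers.

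limma (lmFit, eBayes) tested 6 comparisons across all genes: 4 on log2 ratios and 2 on the levels of a channel. In each fit the arrays of both conditions shared 1 estimate of the spread per gene, moderated across genes by eBayes. p-values were two-sided with Benjamini-Hochberg adjustment and a threshold of 0.05. Named genes are the members, the other receptor genes on the list, and per list the 3 largest changes past the threshold; likeness uses the 3 nearest genes and is given for 3 members. Values of 1 gene that this rule names are not reported here. Each fit was tested on simulated data. Alternatives changed the background correction, normalisation, filter, probe choice, block and arrays used; Il12rb1 by its other probe was added after seeing the data.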

Additional observations from a re-analysis of the deposited data

Results flagged for a closer look

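Ebi3 was the 1 member whose ratio went opposite ways in the 2 states: the knockout was lower on both basal arrays (-0.23 and -0.13) and higher on both LPS arrays (0.24 and 0.41). The difference of the log2 ratios, LPS minus basal, was 0.50 ± 0.11 (SE, n = 2 arrays per condition), and its test did not pass (limma adjusted p = 0.16). Over 11 alternatives the difference lay between 0.30 and 0.79 and passed in 1 of them, median centring (adjusted p = 0.026), where the basal ratio was 0.13 and so no longer below 0.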

How the results depend on the processing

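Il12a and Il23a kept a lower level in the knockout under LPS in each of 11 alternatives (-0.66 to -0.44 and -0.70 to -0.41) and passed in 7 of them; Ebi3 kept a higher one (0.12 to 0.91) and passed in 6. The rises with LPS of Il12a, Il27 and Ebi3 passed in every alternative, where those of Il12a and Il23a reached 6.62 (log2) with the processed signals. Members called under LPS were 3, and 0 with the processed signals and with the authors' deposited table, and 0 to 3 leaving out an array; leaving out an array gave 3 to 5 for LPS in knockout cells, 4 to 5 in wildtype cells, 0 to 1 in the basal state and on average, and 0 for the difference. Median centring called 1 member on average and 1 for the difference, Ebi3 both times.

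Some values near 0 turned. Ebi3 averaged -0.031 with the processed signals and -0.028 with the deposited table, and was 0.13 in the basal state with median centring. For Il27 the difference was 0.034 with the deposited table, 0.043 with median centring, 0.032 with the processed signals and -0.10 to 0.023 leaving out an array, and the LPS ratio was 0.014 with median centring. For Il12rb1, leaving out an array gave -0.14 to 0.82 for the difference, -0.37 to 0.11 for the average, -0.78 to 0.18 for the basal ratio and -0.0070 to 0.084 for the LPS ratio, which was -0.0083 with the mean over probes and -0.055 by its other probe, whose difference was -0.016. Il27ra under LPS was -0.037 with median centring and -0.019 to 0.075 leaving out an array, its LPS change in wildtype cells was 0.32 with 75th percentile scaling, and Il6st in the basal state was 0.043 with median centring.

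Over all genes, the basal count of 1147 was 4459 (3812 higher) with median centring and 706 to 765 leaving out an array. The LPS count of 2921 was 1723 with the processed signals, 1742 with the deposited table, 5491 (4632 higher) with median centring and 401 to 3144 leaving out an array. The average of 4273 was 2839, 2828, 8939 (7262 higher) and 1700 to 2990 in the same order, and the difference of 90 was 6, 8, 228 and 4 to 197. LPS against basal, 9851 in wildtype and 9852 in knockout cells, was 15703 (11488 higher) and 14993 (10828 higher) with 75th percentile scaling, which moved the median of all genes to 0.38 and 0.36, and 5188 to 8849 and 4075 to 9615 leaving out an array. The cause of these moves was not tested.

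The replicate numbers shared by basal and LPS arrays were not treated as pairs. Deviations of same-numbered arrays correlated at -0.16 for ratios, -0.19 for wildtype and -0.083 for knockout levels. These values cannot settle whether the arrays were paired. With the replicate number as a block the difference count was 56, members called under LPS were 2 and in wildtype cells 4; a crossed pairing was not tried. The slide as a block was not run, since there was 1 slide.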

Other observations

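The LPS arrays differed from each other for several members in both channels alike. From LPS replicate 1 to LPS replicate 2 the log2 level of Il23a differed by -0.999 in wildtype and -1.01 in knockout cells and that of Il27 by -0.55 and -0.67, while the brighter Il12rb1 probe differed by 1.44 and 1.35. The median gap over all genes was 0.14 and 0.16, and the Il23a gap exceeded that of 99.1% of genes in wildtype and 98.4% in knockout cells. Ebi3, at 0.08 and 0.26, and Il12a, at 0.22 and 0.07, stood closer to the other genes. Il10 was higher on LPS replicate 2 in both channels, at 8.81 against 7.84 and 10.72 against 9.74. The log2 ratios did not share these gaps: that of Il23a differed by -0.007 between the arrays and that of Il12rb1 by -0.091.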
